A study of Mus musculus with 4 samples.

Results

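The platelet-derived growth factor (PDGF) family was examined in lung RNA-Seq data from mice given amiodarone, dabigatran or both drugs. Its members are the rows of the deposited table that carry these gene symbols: the 4 ligand genes *Pdgfa*, *Pdgfb*, *Pdgfc* and *Pdgfd*, and the 2 receptor genes *Pdgfra* and *Pdgfrb*. All 6 members were found among the 17780 genes of the deposited table. Male mice, labelled C57BL/6 and named C57BL/6J in the study's methods, young when purchased, had been treated for 28 days by oral dosing on weekdays, and the 4 groups received vehicle, amiodarone (an antiarrhythmic drug with known lung toxicity), dabigatran (a direct thrombin inhibitor, given as its etexilate) or amiodarone + dabigatran. Both drugs were suspended in a carboxymethylcellulose solution, which the vehicle mice received alone. The study asked whether thrombin inhibition alters the lung response to amiodarone, and it measured *Pdgfra* and *Pdgfc* by PCR in addition to sequencing. In that PCR, on individual mice, it reported *Pdgfra* as increased by amiodarone and this rise as inhibited by co-treatment with dabigatran. It reported *Pdgfc* as also increased by amiodarone, but not affected by the co-treatment. The single libraries below do not show that rise of *Pdgfra*.

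Each group had 1 library, so no difference could be compared with the spread between animals, and no p-value is given. Levels are FPKM, sequenced fragments per length of transcript and per depth of the library, a unit that allows levels of different genes to be compared per length. Estimated reads on genes totalled 17498486 with vehicle and 18725403 with amiodarone, against 17752873 with dabigatran and 18903401 with both drugs. All 95% intervals were computed from read counts and cover counting error only, and a difference is called beyond counting error where the interval of the ratio excludes 1. Since this was bulk tissue of the left lung, fewer cells of a type and less RNA per cell cannot be told apart.

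PDGF chains are secreted as disulfide-linked dimers that bring receptor tyrosine kinases together on the surface of mesenchymal cells. PDGF-A acts through PDGFRα, PDGF-B binds both receptors, and PDGF-C and PDGF-D are secreted as latent proteins whose CUB domains must be removed by proteolysis. In the lung, PDGF-A from epithelium acts on PDGFRα-positive fibroblasts during alveolar formation, whereas PDGF-B from endothelium recruits pericytes that carry PDGFRβ.

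Coordinates are those of GRCm38.p6. *Pdgfa* (gene ID 18590) spans 138976014 to 139000792 and *Pdgfra* (18595) spans 75151322 to 75198206, both on chromosome 5. *Pdgfb* (18591) is on chromosome 15 from 79995865 to 80024614, *Pdgfc* (54635) on chromosome 3 from 81036416 to 81214040 and *Pdgfd* (71785) on chromosome 9 from 6168363 to 6534284. The study's PCR primers for *Pdgfra* and *Pdgfc* are printed because they mark the part of each transcript that was measured separately. Capitals mark the bases that fall on the later exon, and both forward primers thus cross an exon junction.
Pdgfra forward: tcaaccctagTTCCTGCATCC
Pdgfra reverse: gcttgcagatcatccagtcg
Pdgfc forward: agtaccatgagGTCCTTCAGTTGAG
Pdgfc reverse: tcctgcgtttcctctacacac

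Matched to GENCODE transcripts on GRCm38, the *Pdgfra* pair enclosed 127 bases of coding sequence in exons 8 and 9 of 23 (chr5:75173495-75175061), and 5 of the 9 annotated transcripts contained both primers. The *Pdgfc* pair enclosed 122 bases of coding sequence in exons 5 and 6 of 6 (chr3:81209251-81212572), with both primers in 2 of the 3 annotated transcripts. The RNA-Seq values are per gene and do not separate these transcripts.

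*Pdgfa* and *Pdgfd* were the members whose levels differed most between libraries, by 1.89-fold and 1.53-fold from lowest to highest, and the 250 bases before their annotated starts (RefSeq, GRCm38.p6) are therefore shown. RefSeq lists several transcripts for each, and the starts used here lie inside the full gene spans given above, so that part of the *Pdgfd* window and the whole *Pdgfa* window fall within those spans. Capitals mark GC boxes (GGGCGG) and TATA boxes (TATAAA) on either strand.
Pdgfa, chr5:138994945-138995194, minus strand: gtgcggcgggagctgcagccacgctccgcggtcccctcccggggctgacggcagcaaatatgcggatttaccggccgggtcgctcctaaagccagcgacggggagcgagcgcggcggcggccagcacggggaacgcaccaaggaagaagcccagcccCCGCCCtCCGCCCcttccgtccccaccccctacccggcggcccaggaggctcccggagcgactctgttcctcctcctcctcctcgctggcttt
Pdgfd, chr9:6168236-6168485, plus strand: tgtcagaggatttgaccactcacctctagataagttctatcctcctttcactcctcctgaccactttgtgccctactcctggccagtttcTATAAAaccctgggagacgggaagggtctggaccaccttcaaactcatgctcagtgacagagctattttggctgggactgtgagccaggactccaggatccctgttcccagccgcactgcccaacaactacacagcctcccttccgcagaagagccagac

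The *Pdgfa* window was 72.4% G and C and held 2 GC boxes, and the window of a second annotated start of *Pdgfa* (chr5:138994282-138994531) was 66.4% G and C and held 1. Such letters were common, since 32.7% of 32851 windows of the same length had at least 1 GC box, and the median G and C content of these windows was 52.4%. The *Pdgfd* window was 53.6% G and C and held 1 TATA box, found in 12.4% of all windows. Windows before *Pdgfra* (54.4% G and C) and *Pdgfc* (50.8%) held neither motif. The binding letters of the early growth response factor Egr1, GCGTGGGCG or GCGGGGGCG, were in 0.536% and 2.57% of all windows and in none of these 5. These matches describe sequence only.

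*Pdgfa*, the gene of the PDGF-A chain, measured 94.3 FPKM with vehicle (interval 90.6 to 98.1), 49.8 with amiodarone (47.2 to 52.4), 89.5 with dabigatran (85.8 to 93.2) and 57.6 with both drugs (54.8 to 60.5). Both libraries from amiodarone-treated mice were therefore below both libraries from mice without amiodarone, and the 4 intervals overlapped only between vehicle and dabigatran. *Pdgfb*, the gene of the PDGF-B chain, showed the same division at a smaller size, with 85.8 FPKM with vehicle (83.2 to 88.5), 63.8 with amiodarone (61.6 to 66.0), 88.8 with dabigatran (86.1 to 91.4) and 65.9 with both drugs (63.7 to 68.1). The reads behind *Pdgfb* were not whole numbers in 3 libraries (4093, 3212 and 3414 after rounding), so part of them was shared with other transcripts.

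*Pdgfc* and *Pdgfd* encode the latent ligands and were much lower. *Pdgfd* measured 5.73 FPKM with vehicle (5.12 to 6.39), 5.26 with amiodarone (4.70 to 5.87), 8.06 with dabigatran (7.34 to 8.84) and 5.29 with both drugs (4.73 to 5.90). The dabigatran library alone stood apart, above the intervals of the other 3. *Pdgfc* lay near 1 FPKM throughout, at 0.92 with vehicle (0.671 to 1.23), 1.05 with amiodarone (0.795 to 1.36), 0.80 with dabigatran (0.577 to 1.08) and 1.04 with both drugs (0.783 to 1.35). With 42 to 57 estimated reads per library, all 4 intervals of *Pdgfc* overlapped. Its ratio of amiodarone to vehicle had an interval of 0.759 to 1.73, so moderate differences in either direction could not be resolved at this depth.

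*Pdgfra*, which marks fibroblast populations of the lung, measured 42.0 FPKM with vehicle (40.9 to 43.2), 39.1 with amiodarone (38.0 to 40.3), 43.5 with dabigatran (42.3 to 44.8) and 45.1 with both drugs (43.9 to 46.3). The amiodarone library was lowest and the amiodarone + dabigatran library highest, a range of 1.15-fold. *Pdgfrb* (gene ID 18596; chromosome 18, from 61045127 to 61085067), carried by pericytes and vascular smooth muscle, measured 44.6 FPKM with vehicle (43.2 to 46.0), 38.6 with amiodarone (37.4 to 39.9), 39.7 with dabigatran (38.5 to 41.0) and 37.4 with both drugs (36.2 to 38.6). The vehicle library was highest, and the 3 libraries from drug-treated mice lay close together below it.

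**Figure D1:**
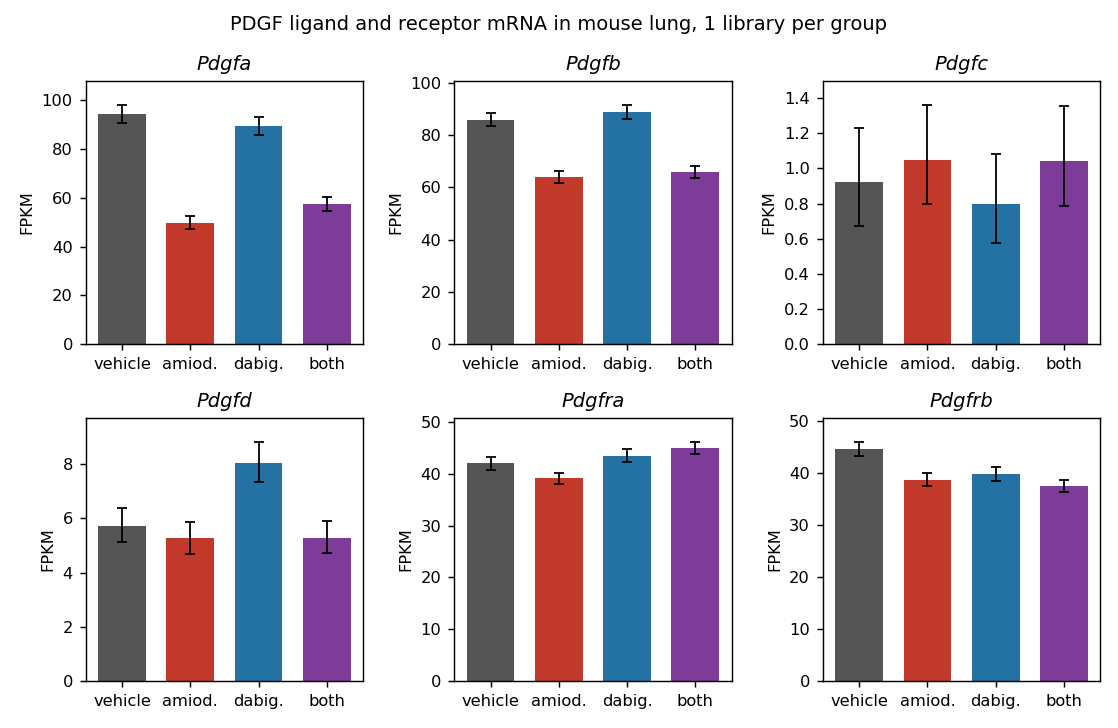
FPKM (vertical axis, starting at 0 and scaled separately for each gene) of the 6 PDGF genes in the vehicle, amiodarone, dabigatran and amiodarone + dabigatran (both) libraries, 1 library per bar, with 95% counting intervals as error bars. The amiodarone and combination bars of *Pdgfa* (49.8 and 57.6 FPKM) and *Pdgfb* (63.8 and 65.9 FPKM) are lower than the other pair, and *Pdgfd* is highest with dabigatran (8.06 FPKM).

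Among the ligands, the order of levels per length changed between libraries. With vehicle, *Pdgfa* was above *Pdgfb*, and they ranked 745 and 824 among all genes by FPKM. With dabigatran the intervals of *Pdgfa* and *Pdgfb* overlapped, and in both libraries with amiodarone *Pdgfb* was above *Pdgfa* with intervals apart. *Pdgfa* made up 50.5% of the summed ligand FPKM with vehicle and 41.5% with amiodarone, and 47.8% with dabigatran and 44.4% with both drugs. *Pdgfc* and *Pdgfd* followed in every library, and *Pdgfc* contributed at most 0.876% of the ligand sum.

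The order of the receptors also changed. *Pdgfra* over *Pdgfrb* was 0.943 with vehicle, 1.01 with amiodarone alone, 1.10 with dabigatran alone and 1.204 with both drugs. The FPKM intervals of the receptors overlapped with amiodarone, met at 43.2 with vehicle and were apart in the other libraries. Summed ligand FPKM was 186.7 with vehicle and 119.9 with amiodarone, against 187.1 with dabigatran and 129.8 with both drugs. Summed receptor FPKM moved less, at 86.6, 77.8, 83.3 and 82.5 in the same order of libraries.

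Amiodarone against vehicle asks how the library given the toxic drug alone differed from the control library. *Pdgfa* was lower at a ratio of 0.528 (95% interval 0.494 to 0.564), the lowest ratio of the 6 members. The tested genes, 13402 in number, were those reaching 1 FPKM in 1 library or the other, and 315 of them had a lower ratio. *Pdgfb* was lower at 0.743 (0.710 to 0.779), *Pdgfrb* at 0.866 (0.829 to 0.905) and *Pdgfra* at 0.931 (0.894 to 0.969). *Pdgfd*, at 0.918 (0.784 to 1.08), and *Pdgfc*, at 1.14 (0.759 to 1.73), stayed within counting error.

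Thus 4 of 6 members were lower and 0 higher beyond counting error, where 30.1% of all tested genes were lower and 19.6% higher. With each library rescaled by its median ratio to the average library, *Pdgfra* was at 0.963 (0.925 to 1.002), within counting error, which left 3 members lower. At least 1.5-fold apart was 1 member, *Pdgfa*, against 12.7% of all genes. On the log2(FPKM + 1) scale the median difference was −0.15 over the members and −0.05 over all genes, and the median absolute difference was 0.15 against 0.16. In this comparison the 6 genes as a group therefore differed by about as much as all tested genes did. The median absolute difference was 0.303 against 0.132 for the combination against dabigatran. It was 0.045 against 0.111 for the combination against amiodarone, and 0.084 against 0.095 for dabigatran against vehicle.

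Dabigatran against vehicle addresses thrombin inhibition alone. *Pdgfd*, whose product acts through PDGFRβ, was higher at a ratio of 1.41 (1.22 to 1.63), and 294 of 13373 tested genes had a higher ratio. *Pdgfrb* was lower at 0.891 (0.852 to 0.931). *Pdgfa* at 0.949 (0.896 to 1.01), *Pdgfb* at 1.03 (0.991 to 1.08) and *Pdgfra* at 1.04 (0.995 to 1.08) stayed within counting error, as did *Pdgfc* at 0.870 (0.557 to 1.35), which was under 1 FPKM in both libraries and so outside the tested genes. This gave 1 higher and 1 lower of 5 tested members, with a background of 15.2% higher and 13.4% lower. No member was at least 1.5-fold apart, against 2.97% of all genes.

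The combination against amiodarone alone asks what dabigatran changed in the presence of amiodarone. *Pdgfra* was higher at 1.15 (1.11 to 1.197) and *Pdgfa* at 1.16 (1.08 to 1.24). The value of *Pdgfra* with both drugs (45.1 FPKM) was also above vehicle (42.0 FPKM), whereas that of *Pdgfa* (57.6 FPKM) stayed well below vehicle (94.3 FPKM). The other 4 ratios lay within counting error, 1.03 (0.984 to 1.08) for *Pdgfb*, 0.968 (0.926 to 1.01) for *Pdgfrb*, 0.990 (0.671 to 1.46) for *Pdgfc* and 1.01 (0.858 to 1.18) for *Pdgfd*. In total 2 members were higher and 0 lower, with a background of 21.2% higher and 15% lower, and no member reached 1.5-fold against 4.53% of 13261 genes. After rescaling by the median ratio *Pdgfrb* was also lower, at 0.943 (0.901 to 0.986).

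The combination against dabigatran alone asks how the library with amiodarone differed from that without it, where both had dabigatran. *Pdgfa* was lower at 0.643 (0.603 to 0.686), *Pdgfd* at 0.656 (0.567 to 0.759) and *Pdgfb* at 0.742 (0.709 to 0.776), and *Pdgfrb* was slightly lower at 0.942 (0.900 to 0.985). *Pdgfra* at 1.03 (0.996 to 1.08) and *Pdgfc* at 1.30 (0.854 to 1.99) were within counting error. Accordingly 4 members were lower and 0 higher, with a background of 23.5% lower and 19.5% higher, and 2 members passed 1.5-fold against 8.83% of 13379 genes. On the log2(FPKM + 1) scale the median difference was −0.25 over the members and −0.01 over all genes. After rescaling by the median ratio *Pdgfra* was higher beyond counting error, at 1.04 (1.004 to 1.08).

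**Figure D2:**
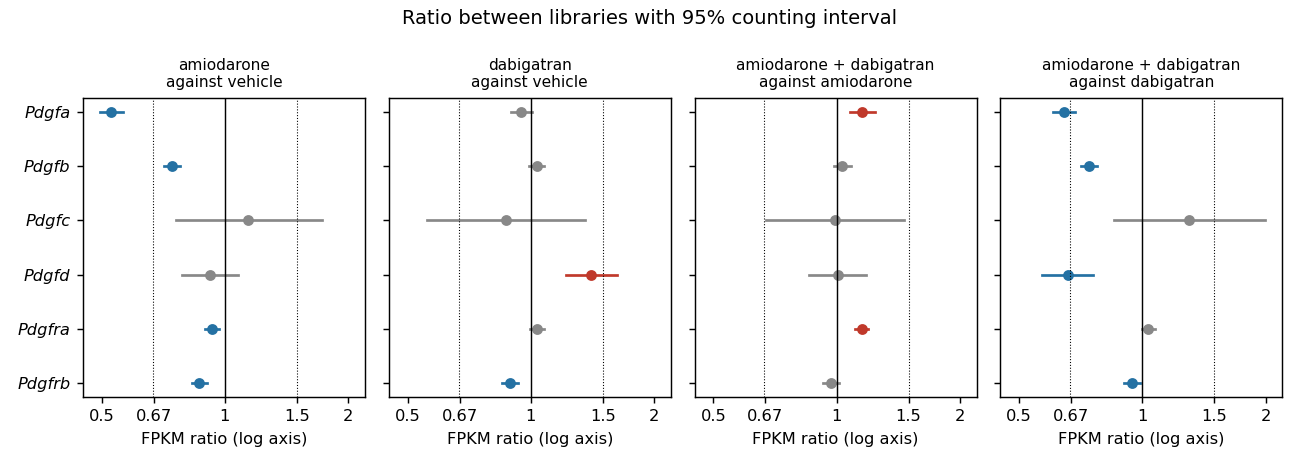
FPKM ratio (horizontal log axis) of each PDGF gene in the 4 comparisons, as points with 95% counting intervals, blue where the interval is below 1, red where it is above 1 and grey where it includes 1, with dotted lines at 1.5-fold. *Pdgfa* and *Pdgfb* are lower in both comparisons that add amiodarone (0.528 and 0.743 against vehicle, 0.643 and 0.742 against dabigatran), and the only red points are *Pdgfd* with dabigatran (1.41) and *Pdgfa* and *Pdgfra* with the combination against amiodarone (1.16 and 1.15).

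The 4 comparisons share libraries and are not independent of each other. The amiodarone ratio with dabigatran divided by that without it was 0.998 for *Pdgfb* (0.936 to 1.06), so the difference in this ligand with amiodarone had nearly the same size either way. This quotient was 1.22 for *Pdgfa* (1.11 to 1.34), 1.11 for *Pdgfra* (1.05 to 1.17), 1.09 for *Pdgfrb* (1.02 to 1.16) and 0.715 for *Pdgfd* (0.579 to 0.883), each beyond counting error. After rescaling by the median ratio the quotient of *Pdgfrb* was 1.06 (0.995 to 1.13), within counting error, and 3 members remained beyond it. For *Pdgfd* the quotient came from the high value with dabigatran alone, since the amiodarone libraries with and without dabigatran had 5.29 and 5.26 FPKM. For *Pdgfc* it was 1.14 (0.650 to 1.99), an interval that holds the quotients of the other 5 members. None of these could be tested across animals.

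**Figure D3:**
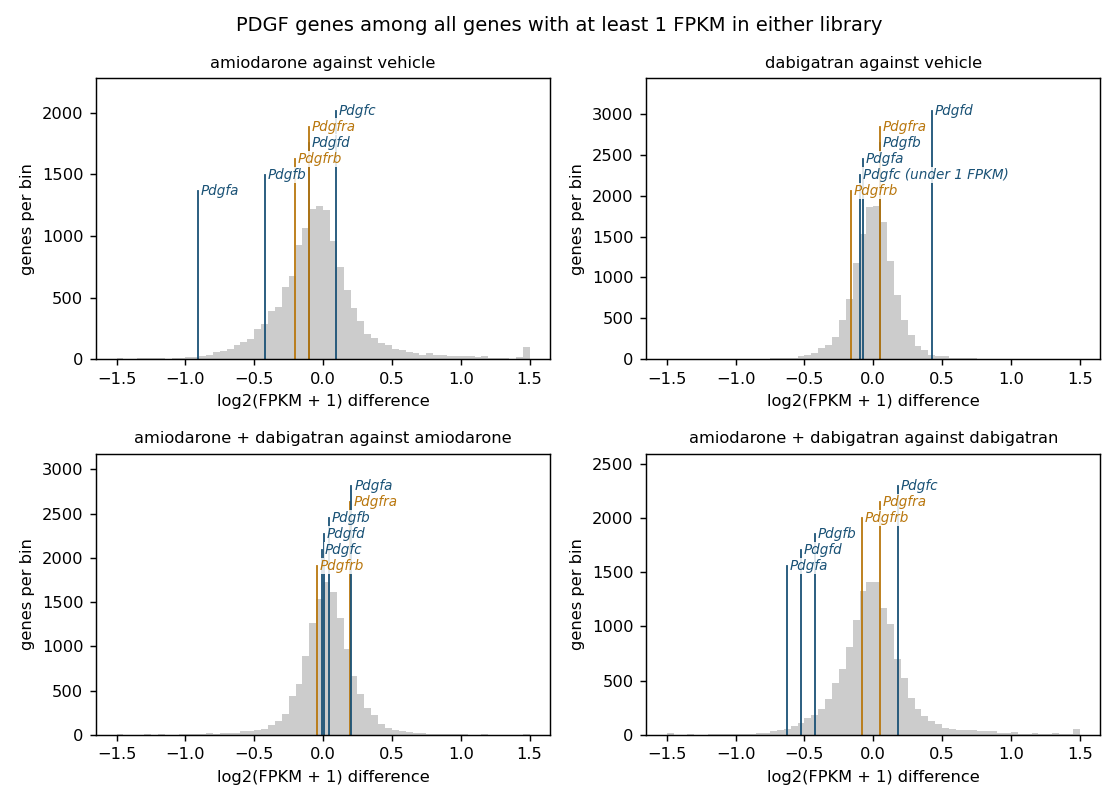
Number of genes (vertical axis) by difference on the log2(FPKM + 1) scale (horizontal axis, bins at both ends holding everything beyond −1.5 and 1.5) for all genes reaching 1 FPKM in 1 library or the other, with the PDGF ligands as blue and the receptors as orange lines whose heights only separate the labels. *Pdgfa* sits in the lower tail in both comparisons that add amiodarone, where its ratios are 0.528 and 0.643, while the receptors stay in the bulk in all 4 panels.

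Genes with the most similar course over the 4 libraries were sought among 9121 genes with at least 5 FPKM in each, by the distance between centred log2 FPKM values. For *Pdgfa* they were *Fxyd3*, an ion transport regulator (distance 0.027), *Hspb6*, a small heat shock protein of muscle (0.087), and *Jph2*, a junctional membrane protein of cardiac muscle (0.10). *Fxyd3* measured 38.3, 19.8, 36.1 and 22.9 FPKM in the 4 libraries (order: vehicle, amiodarone, dabigatran, both), almost parallel to *Pdgfa*. *Jph2* measured 16.9, 8.36, 14.5 and 9.91 FPKM. For *Pdgfd* they were *Lrrc75a* (0.090), the cell cycle inhibitor gene *Cdkn2b* (0.11) and the receptor adaptor gene *Traf5* (0.12), and *Cdkn2b* measured 18.0, 16.3, 23.3 and 17.0 FPKM. With 4 libraries many genes can lie this close, so the likeness is a description.

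Processing and co-receptor genes of the pathway were next examined, a list of 10 genes. Counts for this and the following lists stand against the shares of all tested genes given above for each comparison, which were not matched for read depth. With amiodarone 5 were higher, 2 lower and 3 within counting error, and their median log2(FPKM + 1) difference was 0.07, against −0.05 over all tested genes. *Plat*, tissue plasminogen activator, which activates PDGF-C, measured 15.2 FPKM with vehicle, 30.8 with amiodarone alone, 18.2 with dabigatran alone and 22.8 with both drugs. Its ratio of 2.02 (1.84 to 2.22) with amiodarone was the only one of the list past 1.5-fold. *Sparc*, a matrix protein that binds PDGF-B, measured 737, 539.7, 859.6 and 594 FPKM in the same order, lower with amiodarone at 0.732 (0.720 to 0.744). The proprotein convertase gene *Pcsk6* was lower too, at 0.718 (0.616 to 0.838). With the combination against amiodarone 2 of the 10 were higher and 4 lower, and *Plat* was lower at 0.739 (0.682 to 0.800). With dabigatran alone 5 were higher and 0 lower, and with the combination against dabigatran 3 were higher and 5 lower.

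Signalling genes downstream of the receptors, 31 in the list, were balanced. With amiodarone 7 were higher and 8 lower, with dabigatran 8 and 5, with the combination against amiodarone 8 and 7, and against dabigatran 8 and 8. The median log2(FPKM + 1) difference with amiodarone was −0.03. The docking protein gene *Gab1* had a ratio of 0.725 (0.674 to 0.780) with amiodarone and *Stat5a* of 0.735 (0.637 to 0.848).

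Genes that restrain receptor signalling, 14 in the list, were more often higher than lower with amiodarone, 7 against 2 (19.6% higher and 30.1% lower over all tested genes), with a median log2(FPKM + 1) difference of 0.14. *Spry4*, a feedback inhibitor of receptor tyrosine kinases, measured 7.20 FPKM with vehicle and 12.3 with amiodarone, against 9.05 with dabigatran and 7.36 with both drugs. The ratio of *Spry4* was 1.70 (1.54 to 1.89) with amiodarone and 0.600 (0.543 to 0.663) for the combination against amiodarone. *Ptpn12*, a tyrosine phosphatase, and *Dusp6*, a phosphatase of ERK, were higher with amiodarone at 1.44 (1.35 to 1.55) and 1.36 (1.28 to 1.44). Of the 14 genes, 1 was higher and 6 lower with the combination against amiodarone, 4 and 3 with dabigatran, and 3 and 5 with the combination against dabigatran.

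Early response genes, transcription factor genes and others that growth factors including PDGF switch on in cultured cells, numbered 10. With amiodarone 3 were higher and 5 lower, and the median log2(FPKM + 1) difference was −0.03. The zinc finger factor gene *Egr1* measured 74.96 FPKM with vehicle, 35.5 with amiodarone alone, 81.9 with dabigatran alone and 17.7 with both drugs. *Fosb* measured 6.67, 4.67, 10.3 and 1.88 FPKM, whereas *Myc* measured 4.58, 6.78, 3.99 and 6.06 FPKM. With the combination against amiodarone 0 were higher and 8 lower, and against dabigatran 1 was higher and 9 lower, with 6 of the 10 past 1.5-fold. The shares of all tested genes in the latter comparison were 19.5% higher, 23.5% lower and 8.83% past 1.5-fold. With dabigatran alone 5 were higher and 1 lower. These genes also respond to many other stimuli, handling of tissue included, and the part of PDGF in their levels was not tested.

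The related growth factors and receptors of the VEGF, KIT and CSF1 families were compared as well, with 15 of 16 listed symbols found in the table. With amiodarone 5 were higher and 5 lower, and the median log2(FPKM + 1) difference was 0.07. Among the VEGF receptors, *Flt1* measured 30.1, 44.0, 34.3 and 33.7 FPKM and *Kdr* 78.0, 58.2, 90.8 and 57.4 FPKM with vehicle, amiodarone, dabigatran and both drugs. Their ratios with amiodarone were 1.46 (1.40 to 1.53) for *Flt1* and 0.746 (0.721 to 0.772) for *Kdr*. The ligand gene *Vegfc* was higher at 1.54 (1.31 to 1.81). With dabigatran 7 were higher and 1 lower, with the combination against amiodarone 3 and 6, and against dabigatran 2 and 5.

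Markers of the cell types that make or receive PDGF were read beside these values. Of 10 fibroblast markers 9 were lower with amiodarone and 0 higher, and 8 were lower and 1 higher with the combination against dabigatran, with median log2(FPKM + 1) differences of −0.44 and −0.53. Over all tested genes 30.1% and 23.5% were lower in these comparisons, and the same shares apply to the other marker lists. With the combination against amiodarone 7 were higher and 1 lower, and with dabigatran 6 and 1. Their summed FPKM ranged from 2113 with amiodarone to 2525 with vehicle. *Inmt* measured 1514, 1377, 1337 and 1496 FPKM, and the elastic fibre gene *Mfap4* 403, 289, 457 and 207 FPKM. *Pdgfra* was lower with amiodarone by less than the median of these markers, and was within counting error for the combination against dabigatran.

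Smooth muscle markers had their low values in the same libraries as *Pdgfa*. All 6 were lower with amiodarone and with the combination against dabigatran, with median log2(FPKM + 1) differences of −0.66 and −0.46, and their summed FPKM was 598 with vehicle and 376 with amiodarone, against 568 with dabigatran and 407 with both drugs. *Acta2*, smooth muscle actin, measured 180.8, 99.9, 171 and 121 FPKM, and *Tagln* 160.5, 98.4, 149 and 109.7 FPKM. Cardiac muscle markers, which a lung sample holds where pulmonary veins or heart tissue are included, summed to 1439, 748, 1010.2 and 652 FPKM, with all 6 lower with amiodarone and a median difference of −0.93. *Actc1* measured 413, 175, 326 and 183 FPKM, and *Myl7* 359, 176, 231 and 162 FPKM. The part of muscle tissue in the levels of *Pdgfa* was not tested.

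With amiodarone *Pdgfrb*, all 6 smooth muscle markers and 9 of 10 fibroblast markers were lower beyond counting error, and 0 pericyte markers were. With dabigatran alone *Pdgfrb* was also lower, at 0.891, and 3 of 6 smooth muscle markers were lower (median −0.07). The part of these cell types in the level of *Pdgfrb* was not tested. Of 9 pericyte markers 2 were higher and 0 lower with amiodarone (median log2(FPKM + 1) difference 0.01), 1 higher and 2 lower with dabigatran, 0 and 5 with the combination against amiodarone, and 2 and 3 against dabigatran. Their sums were 228 FPKM with vehicle, 243 with amiodarone alone, 213 with dabigatran alone and 225 with both drugs. *Postn* measured 102, 110.1, 103 and 105 FPKM, and *Cox4i2*, a cytochrome oxidase subunit of pericytes, 74.8, 77.2, 61.8 and 70.6 FPKM.

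Endothelium and platelets, both sources of PDGF-B, were measured by 7 and 6 markers. Among endothelial markers 4 were higher and 2 lower with amiodarone (median log2(FPKM + 1) difference 0.10), 6 and 0 with dabigatran, 0 and 4 with the combination against amiodarone, and 0 and 7 against dabigatran. *Pecam1* measured 258, 276, 294 and 238 FPKM and *Cldn5* 289, 261, 330.5 and 259 FPKM. Ratios of the 7 markers with amiodarone ran from 0.746 for *Kdr* to 1.17 for *Tek*, with *Cldn5* next lowest at 0.906. The ratio of *Pdgfb* was 0.743. Platelet markers summed to 50.2 FPKM with vehicle and 33.8 with amiodarone, against 46.0 with dabigatran and 62.4 with both drugs. Of these 5 were lower with amiodarone (median −0.37), and all 6 were higher with the combination against amiodarone (median 0.74), where *Pdgfb* stayed at a ratio of 1.03. *Pf4* measured 28.2, 17.7, 22.6 and 28.4 FPKM, and *Itga2b* 9.41, 7.20, 10.1 and 15.0 FPKM. The part of endothelium and platelets in the level of *Pdgfb* was not tested.

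Epithelial and macrophage markers, for other sources of PDGF-A and PDGF-C, were also read. The alveolar type 2 marker *Sftpc* measured 20077, 19587, 19876 and 20385 FPKM and *Sftpb* 3667, 4235, 3329 and 4429 FPKM, and the type 1 markers *Ager* and *Hopx* measured 2250.2, 2287, 2248 and 2462 FPKM and 534, 534, 556 and 540.3 FPKM. With amiodarone the ratio of *Sftpc* was 0.976, and the median log2(FPKM + 1) difference was 0.08 over the 5 type 2 markers and 0.02 over the 5 type 1 markers. All 3 club cell markers were lower with amiodarone, with dabigatran alone and with the combination against dabigatran (medians −0.70, −0.30 and −0.39). In the last of these comparisons the ratio of *Scgb1a1* was 0.987. *Cyp2f2* measured 4044, 2549, 3746 and 2861 FPKM and *Scgb1a1* 124168, 73994, 99032 and 97786 FPKM. All 6 macrophage markers were higher with amiodarone and with the combination against dabigatran (medians 0.92 and 1.12), and *Cd68* measured 28.6, 77.2, 25.8 and 89.2 FPKM and *Itgax* 9.95, 25.7, 9.22 and 23.5 FPKM. With the combination against amiodarone 5 were higher and 1 lower (median 0.20). In stained lung sections, a different measure, the study counted fewer macrophages with co-treatment than with amiodarone. Adipocyte markers were lower, all 4 with amiodarone (median −1.16), *Cfd* at 62.8, 21.3, 106 and 41.5 FPKM and *Car3* at 34.2, 12.2, 45.1 and 18.7 FPKM. None of these lists had a marker at 0 in any library, and their part in the PDGF values was not tested.

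**Figure D4:**
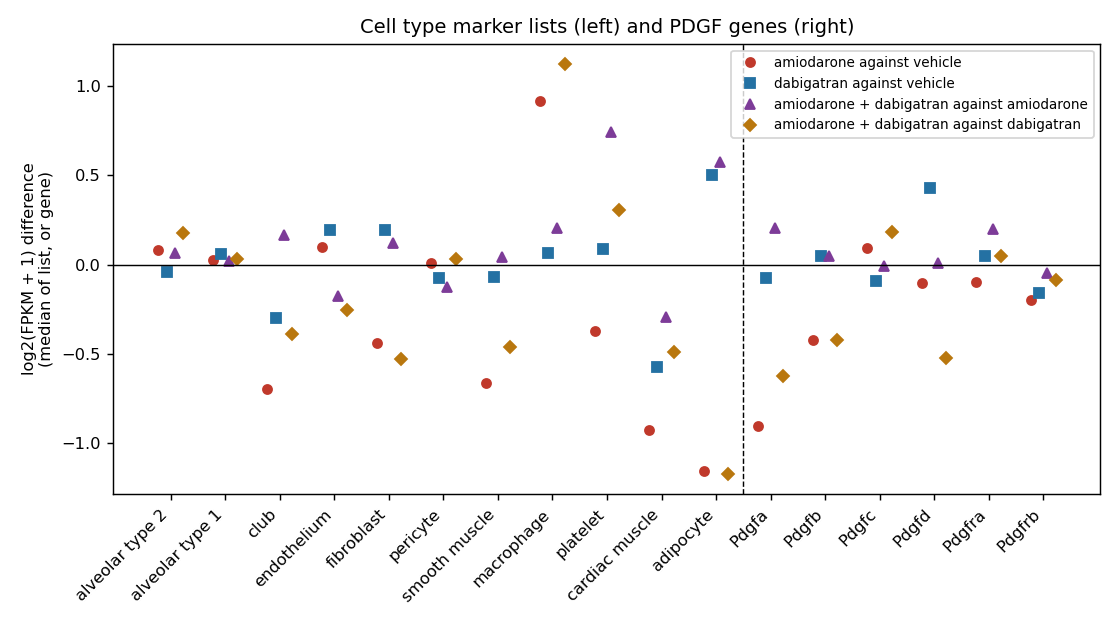
Difference on the log2(FPKM + 1) scale (vertical axis) as the median of each cell type marker list (left of the dashed line) and for each PDGF gene (right), with a symbol for each of the 4 comparisons. In both comparisons that add amiodarone (circles and diamonds) *Pdgfa*, *Pdgfb*, *Pdgfd* and the club, smooth muscle, fibroblast, cardiac muscle and adipocyte lists lie below 0. In the same comparisons *Pdgfra* and *Pdgfrb* stay between −0.20 and 0.05, and the macrophage list lies near 1.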

How the data were processed

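RNA-Seq was performed on lung from 4 groups of mice with 1 library each, assigned to groups from their labels, which state 28 days of treatment; the study's methods name a slightly earlier collection day. The authors prepared poly(A)+ libraries for DNBseq, aligned reads to GRCm38.p6 with HISAT and Bowtie2 and estimated expression with RSEM. They deposited 2 values per gene and library, an estimated count of reads and a normalized value that is not named. The deposited normalized values were read as FPKM, because reads per unit differed between libraries by 1.07 (amiodarone against vehicle), 1.01 (dabigatran) and 1.08 (both), as did the total counts. A further 8 columns of means over libraries, made by the authors, were not used.

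Ratios are of FPKM, without a pseudocount, and log2(FPKM + 1) was used for medians, which understates differences of low genes. Exact 95% intervals of ratios (Clopper-Pearson) and of levels (Poisson) were computed from estimated reads rounded to whole numbers. The interval of a quotient of ratios used a normal approximation on the log scale. A count of 0 allows up to 3 reads. A gene entered a comparison when it reached 1 FPKM in 1 of the libraries compared, and 1.5-fold was the size threshold. The members and the gene lists were chosen with earlier results of these data known. Named genes were the members, up to 3 genes per pathway list with the largest log2(FPKM + 1) difference between amiodarone and vehicle among those with at least 5 FPKM in 1 of these libraries, the 2 highest in vehicle per cell type list, and the 3 nearest genes of members that varied 1.5-fold. Rescaling by the median ratio over 12728 genes, scaled reads, other thresholds and other filters were tried. A further planned rescaling and some genes under the naming rule are not reported here. The calculation of ratios and intervals was tested on simulated data. Gene coordinates came from RefSeq for 17669 gene identifiers. Python 3.11.15, pandas 2.3.3 and SciPy 1.17.1 were used.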

Additional observations from a re-analysis of the deposited data

Results flagged for a closer look

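For *Pdgfa* the dabigatran ratio lay on opposite sides of 1 without and with amiodarone, 0.949 (0.896 to 1.01, dabigatran against vehicle) and 1.16 (1.08 to 1.24, combination against amiodarone), and the second divided by the first was 1.22. For *Pdgfra* the amiodarone ratio lay on opposite sides of 1 without and with dabigatran, 0.931 (0.894 to 0.969, amiodarone against vehicle) and 1.03 (0.996 to 1.08, combination against dabigatran), and the quotient was 1.11. The point values alone drew attention to both. In each pair 1 value lay within counting error, so the counts do not establish opposite directions, and with 1 library per group the difference was not tested.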

How the results depend on the processing

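Scaling by the median ratio or by library total and a pseudocount of 1 left all 24 ratios inside their intervals. Scaling by the median ratio nevertheless changed 3 of the 24 calls against counting error, those of *Pdgfra* with amiodarone (lost), *Pdgfrb* for the combination against amiodarone (gained, lower) and *Pdgfra* against dabigatran (gained, higher), and left 3 instead of 4 quotients beyond counting error. Among values within counting error, *Pdgfd* for the combination against amiodarone changed side (0.979 with the median ratio). Members past the threshold with amiodarone were 0 at 2-fold and 2 when 25% apart sufficed instead of 1, and with dabigatran 1 at 25% instead of 0. For the combination against dabigatran they were 1 with the pseudocount, 0 at 2-fold and 4 at 25% instead of 2. Over all genes 1704 passed 1.5-fold with amiodarone, 890 with a filter of 5 FPKM and 4193 without a filter. The same counts were 397, 76 and 2652 with dabigatran, 601, 230 and 2912 for the combination against amiodarone, and 1181, 576 and 3618 against dabigatran. The filter changes how many genes enter. The cause of the other shifts was not tested. With 1 library per group no library could be left out, and depth limits *Pdgfc* to fewer than 60 reads per library. No paired analysis was possible because each group has 1 library.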
